A study of Mus musculus with 8 samples.

Results

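Cholangiocytes, the epithelial cells that line the bile ducts, were taken as the cells of parenchymal cluster #p2 in an atlas of 3491 single-cell transcriptomes of the adult mouse liver. The cells were chosen by the deposited multilevel cluster number of the parenchymal dataset, and no level of any gene was used here to select them. Cluster #p2 held 157 cells of male mice and 37 cells of female mice. All of them carried the deposited annotation of cholangiocytes, and no other cell did. The comparison cells were the 201 male cells of hepatocyte clusters #p1, #p3, #p4 and #p5, and the endothelial, immune and mesenchymal classes of each sex. Only 2 hepatocytes were female, so genes were called against hepatocytes in the male pool. Female #p2 values, and rules that cover every plate, were also set against these male hepatocytes.

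The mice were adult, healthy C57BL6/J animals or heterozygous fluorescent reporter animals on that background, from early adulthood to about a year of age. Reporter alleles (*Pdgfrb* GFP, *Pdgfra* H2bGFP, *Acta2* GFP, *Cldn5* GFP, *Cspg4* dsRED) mark other cell types, and the labels do not give the genotype or the animal behind a cell. Livers were dissociated enzymatically, and single cells were sorted into the wells of plates and sequenced by Smart-seq2, a method that reads whole transcripts of one cell per well and counts reads without molecular identifiers. Cholangiocytes were enriched with an antibody against EPCAM, so the level of *Epcam* was set by the sort and is no finding. Hepatocytes were sorted without enrichment.

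The deposited table held raw read counts for 46609 rows, of which 92 were ERCC spike-ins. Male #p2 cells had a median of 341237 counts over 4444 genes, and female #p2 cells had a median of 88932 counts over 5577 genes. Male hepatocytes had a median of 166805 counts over 3000 genes. Counts of all cells of a group were summed and given as CPM, the share of a gene in the summed counts without spike-ins on the usual scale. Each sex gave 1 pooled sample per class, and the clusters had been made on these same counts, so no p-value is given. Spread is shown over the 6 plates with at least 5 #p2 cells, called male plates 1 to 5 (110, 21, 9, 8 and 7 cells) and female plate 1 (36 cells). Shares of cells carry exact 95% binomial intervals, and all intervals cover counting error only. A gene was called when the ratio of CPM, after adding 1 CPM to both sides, was at least 4-fold and either side reached 5 CPM.

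Cholangiocytes seal the bile duct lumen with tight junctions, rest on a basement membrane, carry a primary cilium that senses bile flow, and add bicarbonate, chloride and water to bile. In development they share a precursor with hepatocytes, from which they separate under *Sox9*, Onecut factors and Notch signalling. A fraction of the biliary epithelium can proliferate and express progenitor genes after liver injury.

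Cholangiocytes also respond to the Hippo pathway, whose coactivator YAP binds DNA through TEAD factors. The promoters below belong to *Ankrd1* and *Ccn1*, a pair of well-known YAP targets that were far higher in #p2 cells than in hepatocytes, as described further down. They are shown because each holds the core TEAD motif GGAATG. Each run gives the 250 bases before the RefSeq start site in assembly GRCm38.p6, written 5′ to 3′ on the strand of the gene, with the motif of either strand in capitals.
Ankrd1 (chr19:36119845-36120094, minus strand): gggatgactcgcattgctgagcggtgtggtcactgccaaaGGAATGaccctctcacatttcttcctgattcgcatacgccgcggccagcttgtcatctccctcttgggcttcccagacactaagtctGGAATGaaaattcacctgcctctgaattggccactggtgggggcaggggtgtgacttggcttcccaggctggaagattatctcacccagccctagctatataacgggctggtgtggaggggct
Ccn1 (chr3:145649986-145650235, minus strand): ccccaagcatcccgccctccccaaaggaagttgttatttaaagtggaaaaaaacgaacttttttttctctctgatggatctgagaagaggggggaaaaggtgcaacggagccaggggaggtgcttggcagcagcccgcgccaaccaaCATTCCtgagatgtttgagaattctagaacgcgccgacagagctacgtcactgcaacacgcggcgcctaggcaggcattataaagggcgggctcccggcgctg
The motif began 210 and 123 bases before the start site in *Ankrd1* and 103 bases before it in *Ccn1*. Of 20 genes on the Hippo and YAP list, 18 had a promoter in the table, and 11 of these (61.1%) held the motif on either strand in a window of 300 bases (250 before and 50 after the start site). Over all 27025 promoters the share was 14.6%, and among the genes higher in #p2 than in all other cells, described below, 42 of 263 (15.97%) held it. Of those counted in at least 50% of #p2 cells, 20 of 86 (23.3%) held it. The list was made of known pathway genes and targets, and the promoters shown were chosen after the values were seen, so its share is no finding of these cells. These matches are descriptions of letters in a window and not binding sites.

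The identity of the cluster was checked with *Krt19* and *Krt7*, the biliary keratins, *Spp1*, which encodes osteopontin, and *Epcam*. *Krt19* was at 487 CPM in the males and 544 CPM in the females, and at 0.139 CPM in male hepatocytes. On the plates it ranged from 240.2 to 651 CPM (493 ± 141, SD, n = 6), and it was counted in 86.6% of #p2 cells (interval 81.0 to 91.1) and in 1.49% of male hepatocytes. With at least 20 counts required, the share of #p2 cells was 76.3%. *Spp1* was at 4722 CPM in the males and 6029 CPM in the females against 33.2 CPM in hepatocytes, and on the plates at 5021 ± 1709 CPM. *Krt7* was at 410.3 and 1023 CPM in the male and female pools. Its plates did not agree: male plates 1 to 4 had 469, 255, 335 and 357 CPM and female plate 1 had 1037 CPM, whereas the 7 cells of male plate 5 had 3.01 CPM.

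All 4 markers were counted together in 135 cells (69.6%), 3 of them in 41 cells, 2 in 14, 1 in 3, and none in 1 cell. The cell without a marker was the only #p2 cell of female plate 2, where 339 of the 344 cells were mesenchymal, and its summed mesenchymal markers reached 18292 CPM. Outside the cluster each marker was low in the classes taken whole, at most 8.61 CPM for *Krt19*, 10.7 CPM for *Krt7* and 47.7 CPM for *Spp1*. Among smaller clusters, *Krt7* reached 95.2 CPM in female and *Krt19* 92.8 CPM in male cells of mesenchymal cluster 9. *Spp1* was highest at 281 CPM in the 13 female cells of endothelial cluster 4, annotated as lymphatic endothelium, where 23.1% of cells had a count.

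**Figure D1:**
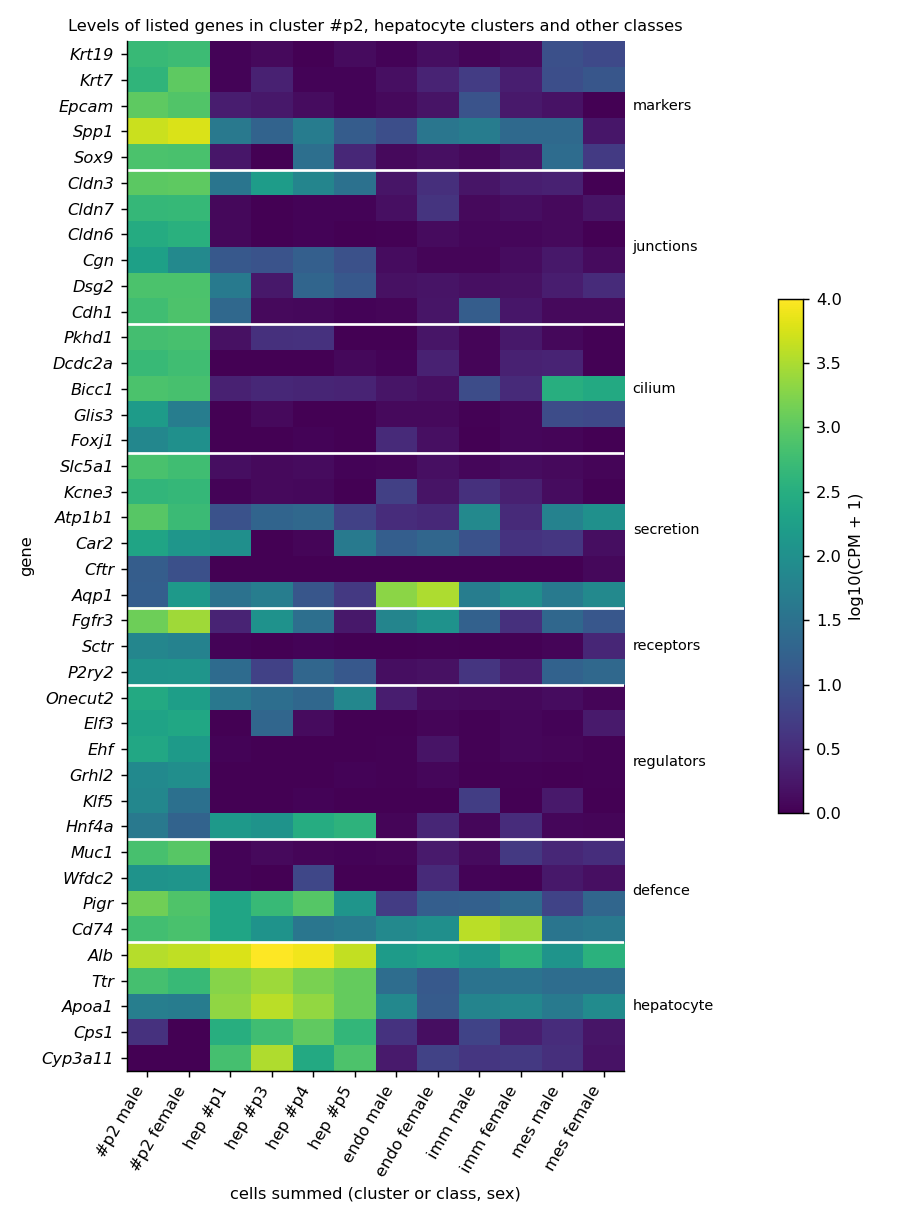
Levels, as log10(CPM + 1), of listed genes (rows, grouped by role) in the summed cells of cluster #p2, the 4 male hepatocyte clusters and the endothelial (endo), immune (imm) and mesenchymal (mes) classes of each sex (columns). Marker, junction and cilium genes were high in both #p2 columns and low elsewhere with exceptions such as *Bicc1* in mesenchymal cells, whereas *Alb* was high in #p2 and in hepatocytes and *Cyp3a11* was high only in the hepatocyte columns drawn.

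Against male hepatocytes, 4003 of 12615 tested genes (31.7%) were at least 4-fold higher in male #p2 cells and 1114 (8.83%) were at least 4-fold lower. Higher genes made up 78.2% of these calls with CPM and 61.3% with TMM scaling factors, which moved the median log2 ratio of all tested genes from 0.96 to 0.20, a shift of -0.77. TMM factors scale each group as a whole, so they moved the ratios of all genes down together. The 2848 genes called higher with TMM were therefore among the CPM calls by construction. The same holds for the 1114 genes called lower with CPM, which were all called with TMM. Read against 31.7%, the 6 cholangiocyte markers (all higher), progenitor genes (18 of 22), antigen presentation (13 of 16), immediate early genes (24 of 30), cilium genes (15 of 19), tight junction (16 of 21) and basement membrane genes (16 of 21) had the larger shares of higher members. Urea cycle and amino acid enzymes had no higher and 13 of 17 lower members. The markers were used to name the cells and the lists were drawn up with earlier results known, so these counts describe the cluster. The same 31.7% higher and 8.83% lower are the background of each list count against hepatocytes below.

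**Figure D2:**
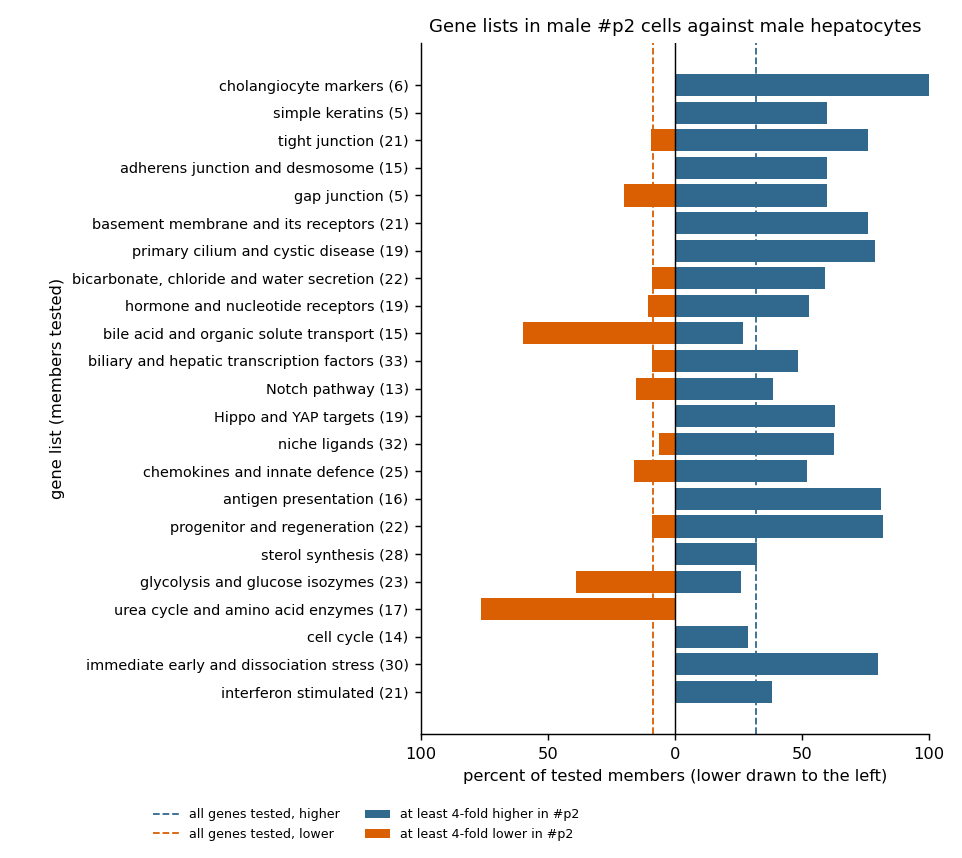
Percent of the tested members of the gene lists, without the marker lists of other cell types, that were at least 4-fold higher (blue, right) or lower (orange, left) in male #p2 cells than in male hepatocytes, with the number of members tested in parentheses. Dashed lines mark the same percent over all tested genes, 31.7 higher and 8.83 lower; of the lists drawn, the urea cycle, bile acid transport and glycolysis lists extend furthest to the left.

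Among genes counted in at least 50% of #p2 cells and past 4-fold on every plate, the largest ratio after *Epcam* was that of *Muc1*, a membrane mucin of secretory epithelia, at 681 CPM in the males and 899 CPM in the females against 0.139 CPM in hepatocytes (log2 ratio 9.23). *Slc5a1*, the sodium-coupled glucose transporter SGLT1, followed at 711 and 589 CPM against 0.279 CPM. *Cd24a*, a surface glycoprotein used to isolate biliary cells, was at 947 and 742 CPM against 0.892 CPM. The next genes in order were *Dcdc2a*, *Krt19*, the claudin *Cldn7*, *ccdc198*, the scavenger receptor *Scara3*, the potassium channel subunit *Kcne3*, the tetraspanin *Tspan8*, *Ddit4l*, *Ezr*, which encodes ezrin of the apical cortex, the protease inhibitor *Spint1*, and *Tuft1*, with log2 ratios between 8.23 and 8.87. On the plates *Scara3* ranged from 231 to 2241 CPM and *Tuft1* from 7.65 to 376 CPM, so even these genes spread widely between plates. In all, 318 genes were higher in this broad sense, counted in at least 50% of cells and past the fold on each of the 6 plates.

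The 10 genes with the most negative ratios were mostly enzymes. *Hgd*, of tyrosine breakdown, was at 0.142 CPM in male #p2 cells against 1298 CPM in male hepatocytes. Female #p2 cells had 21.6 CPM of it, all 135 counts in the marker-free cell of female plate 2 described above, whose hepatocyte markers summed to 5115 CPM. *Cyp3a11*, a drug-oxidising cytochrome P450, was at 0.0178 CPM in male cells and had no count in female cells, against 823 CPM in hepatocytes. *Hao1* and *Agxt*, of glyoxylate metabolism, were at 0.800 and 0.711 CPM in male #p2 cells against 1062 and 943 CPM. In female #p2 cells *Hao1* had no count, and *Agxt* was at 69.7 CPM, again with every count in that 1 cell. The others were *Alas2* of haem synthesis in erythroid cells, *Pck1* of gluconeogenesis, *Cyp2c29*, *Uroc1* of histidine breakdown, the kinase *Sgk2* and *Cyp2c50*, which had 0.124, 1.85, 0.231, 0.142, 0.0889 and 0.0711 CPM in male #p2 cells and between 403 and 1350.1 CPM in hepatocytes. Of these *Pck1* was at 33.5 CPM in female #p2 cells, from 2 cells, and the others at most at 2.24 CPM. On every one of the 6 plates 660 genes were at least 4-fold lower than in hepatocytes.

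The comparison was repeated against each hepatocyte cluster, since the clusters differ in depth. Male #p2 cells were at least 4-fold higher for 5843 genes against #p1 (62 cells), 5161 against #p3 (23 cells), 4398 against #p4 (59 cells) and 4838 against #p5 (57 cells). The lower genes numbered 1196, 1192, 1032 and 1133 in the same order. Of 13227 genes tested, 2533 (19.2%) were higher than in each of the 4 clusters and 567 (4.29%) were lower than in each. The count of higher genes was largest against #p1, whose cells had the fewest genes detected, a median of 2167.5 against 3909 in #p4.

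Only 2 plates held at least 5 cells of both kinds. Within male plate 2 (21 #p2 cells and 12 hepatocytes) 5268 genes were higher and 1505 lower, and within male plate 4 (8 and 155 cells) 3232 were higher and 2441 lower. Of the 4003 genes called higher in the whole pool, 2657 passed within male plate 2 and 2265 within male plate 4, and of the 1114 lower genes 655 and 885 passed.

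Against the non-epithelial classes, 603 of 15844 tested genes (3.81%) were at least 4-fold higher in #p2 cells than in the endothelial, immune and mesenchymal classes in both sexes. Within male plate 2 (21 #p2, 86 endothelial, 70 immune and 59 mesenchymal cells) 1079 genes passed against the classes, 438 of the 603 among them, and within male plate 3 (9, 13, 10 and 48 cells) 1414 and 387. *Tm4sf4*, a four-span membrane protein of intestine and liver, was at 1591 and 1071 CPM against at most 2.62 CPM in a class and 57.6 CPM in hepatocytes. *Slc5a1* and *Pkhd1* followed, and then *Krt8* and *Krt18*, the general keratins of simple epithelia. *Krt8* was at 2131 and 2959 CPM and *Krt18* at 1374 and 1504 CPM, against 697 and 529 CPM in hepatocytes. The male #p2 levels of both were within 4-fold of hepatocytes, whereas the female level of *Krt8* was past it. Further names by this rule were *Serinc2*, *Cldn3*, *Krt23*, the collectin *Sftpd*, *Tspan8*, the desmosomal cadherin *Dsg2*, *Cldn6*, *Pdzk1ip1* and *Dcdc2a*, whose highest level in any class lay between 0.307 CPM (*Krt23*) and 2.41 CPM (*Cldn3*).

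Of the 603 genes, 394 were also at least 4-fold higher than in hepatocytes (2.44% of 16180 tested), 171 were within 4-fold of hepatocytes and 38 were at least 4-fold lower than in hepatocytes. These are the genes called higher than in all other groups below, where a group is the hepatocytes or a class taken whole in each sex. Their 2.44% is the background of each list count of such genes below. The 394 genes were 9.84% of those higher than hepatocytes and 65.3% of those higher than every class. When each class was replaced by its highest multilevel cluster, 212 of the 394 remained past 4-fold. The 182 others came within 4-fold in a single cluster, and the cluster nearest to #p2 was most often that annotated as lymphatic endothelium (24 genes). *Prox1*, a transcription factor of hepatic and lymphatic cells, was one of them, at 277 CPM in male #p2 cells and 439.8 CPM in the male lymphatic cells. *Cd24a* was at 713.5 CPM in the 13 female lymphatic cells and 742 CPM in female #p2 cells. The level was above that of #p2 for *Lcn2* (681 against 156 CPM) and *Itgb4* (227 against 134 CPM) in female lymphatic cells, for *Car2* (357 against 125 CPM) in female cells of endothelial cluster 3 and for *Glis3* (69.1 against 49.3 CPM) in female cells annotated as cHSC. The remaining genes were nearest to elaSMC (18 genes), Kupffer cells (15), Wt1_FB (15) and further annotations with 14 genes or fewer. The nearest cluster was sought among 48 clusters by sex with at least 5 cells, and in small ones a few cells can set the level. *Sox9*, for example, was at 94.8 CPM in the 9 male cells of mesenchymal cluster 6, with a count in 11.1% of them. Among the genes described here, *Ddit4l*, *Atp1b1*, *Tlr5*, *Pard6b*, *Cyp51*, *Sema3c*, *Fgfr3*, *Cftr*, *Lsr*, *P2ry2*, *Itga3*, *Foxj1*, *Marveld2*, *Tnfrsf19*, *Sqle*, *Wnt7b*, *Tnfrsf12a* and *Ankrd1* were above their nearest cluster by less than 4-fold. A group of 71 genes was past both rules on every plate and counted in at least 50% of #p2 cells.

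The junction lists showed how the epithelial contacts differed from those of hepatocytes. *Cldn3*, a sealing claudin, was at 983 and 1017 CPM in male and female #p2 cells, against 58.0 CPM in hepatocytes. *Cldn7* was at 466 and 486 CPM against 0.112 CPM, and *Cldn6* at 292 and 339 CPM against 0.0837 CPM. *Cldn4* (148 and 362 CPM), *Cldn8* (236 and 110.1 CPM) and the channel-forming *Cldn2* (107 and 362 CPM) were counted in fewer cells, 49.5%, 58.2% and 34.0%. *Cldn1* and *Cldn14* were lower than in hepatocytes, *Cldn1* at 0.0178 against 21.8 CPM. Besides claudins, *Ocln*, *Cgn*, *Marveld2*, *Marveld3*, *Lsr*, *Pard6b*, *Patj* and *Cxadr* were higher than in all other groups. This made 14 of the 21 tight junction genes, against 2.44% of all tested genes.

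In the adherens junction and desmosome list, 9 of 15 tested members were higher than in hepatocytes and none was lower. *Cdh1*, or E-cadherin, was at 590.2 and 763 CPM in #p2 cells and 5.69 CPM in hepatocytes, and its plates gave 577 ± 224 CPM. *Cdh2*, or N-cadherin, was at 15.1 and 16.8 CPM against 26.7 CPM. *Dsg2* (745 and 725 CPM), *Dsp* (157 and 183.9 CPM) and *Dsc2* (98.0 and 34.1 CPM) completed the members higher than in every other group. The connexins differed among themselves. *Gjb1*, of hepatocyte gap junctions, was at 172 CPM in male #p2 cells and 365 CPM in hepatocytes, *Gjb2* was at 4.85 against 124 CPM, and *Gja1* was at 189 against 2.09 CPM.

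Among keratins, *Krt23* was at 488 and 343 CPM in #p2 cells and 5.49 CPM in hepatocytes, whereas *Krt20* had no count in any #p2 cell. For a gene without a count, 3 counts correspond to 0.0533 CPM over the male cells and 0.481 CPM over the female cells, and the same 3 counts, set against all #p2 cells, give a share of up to 1.55% for a gene counted in none of them.

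Of 21 tested basement membrane genes and integrins, 16 were higher than in hepatocytes. Against 2.44% of all tested genes, 4 were higher than in all other groups. Among these were *Itga3* (173 and 399.6 CPM), *Itgb4* (75.3 and 134 CPM) and *Itgb6* (49.2 and 41.0 CPM), which encode integrin chains of epithelial adhesion. Hepatocytes had 0.112, 0.307 and 0 CPM of them. Single clusters came close or were higher, with 113.7 CPM of *Itga3* in male central vein cells and, as given above, more *Itgb4* in female lymphatic cells than in female #p2 cells. Agrin, *Agrn*, was at 276 and 669 CPM against 3.10 CPM in hepatocytes and up to 107 CPM in a class. *Lama5* differed between the pools, at 55.9 CPM in the males and 418 CPM in the females, and *Lama1* was not above 0.1 CPM in either.

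The cilium list contained 15 of 19 tested members higher than in hepatocytes and none lower. *Pkhd1*, which encodes fibrocystin, the product of the gene mutated in recessive polycystic kidney and liver disease, was at 648 and 677 CPM against 1.39 CPM. On the plates it was at 688, 399.8, 925, 417 and 555 CPM in males and 687 CPM in females, so every plate lay far above the hepatocytes. *Dcdc2a*, a ciliary doublecortin protein whose human counterpart is mutated in neonatal sclerosing cholangitis, was at 494 and 584 CPM against 0.0558 CPM. *Bicc1*, an RNA-binding protein linked to cystic disease, was at 737 and 679 CPM but also at up to 323 CPM in mesenchymal cells. *Glis3*, a transcription factor of the same disease group, was at 157 and 49.3 CPM and ranged from 15.9 to 777 CPM over plates. *Foxj1*, the regulator of motile ciliogenesis, was at 70.7 and 101 CPM and at 0.0279 CPM in hepatocytes, and it was counted in 35.6% of #p2 cells (interval 28.8 to 42.7). The polycystins *Pkd1* (31.7 and 25.5 CPM) and *Pkd2* (53.2 and 45.2 CPM) were also measured, with 2.71 and 3.12 CPM in hepatocytes.

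Of 22 tested genes of ductular secretion, 13 were higher and 2 lower than in hepatocytes, the lower share near the 8.83% of all tested genes, and they differed in how many cells had a count. *Atp1b1*, a β subunit of the sodium-potassium ATPase, was at 901 and 529.7 CPM in #p2 cells, against 13.6 CPM in hepatocytes. The potassium channel *Kcnk1* was at 254 and 208 CPM against 0.0279 CPM, and the calcium-activated chloride channel *Ano1* at 240.3 and 528 CPM against 0.502 CPM. *Cftr*, the cyclic AMP-gated chloride channel of bile duct secretion, was at 14.1 and 8.33 CPM and was counted in 12.4% of #p2 cells (interval 8.09 to 17.8), with 0 CPM in hepatocytes. *Slc4a2*, the chloride-bicarbonate exchanger, was at 81.0 and 120.5 CPM against 28.7 CPM. *Car2*, a carbonic anhydrase, was at 213 and 125 CPM, and ranged from no count on male plate 3 to 236 CPM on male plate 1. Of the water channels, *Aqp1* was at 14.5 CPM in the males and 143 CPM in the females and at up to 3238 CPM in endothelial cells, and *Aqp5* was at 27.3 and 5.93 CPM.

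Of 19 tested hormone and nucleotide receptors, 10 were higher and 2 lower than in hepatocytes, the lower share near the 8.83% of all tested genes, and 3 of the list were counted in at least 50% of #p2 cells. *Sctr*, the secretin receptor, was at 68.6 and 57.5 CPM in #p2 cells, 0.0558 CPM in hepatocytes and at most 1.72 CPM in a class taken whole (5.72 CPM in the nearest cluster, female artSMC), and was counted in 29.4% of #p2 cells (interval 23.1 to 36.3). On male plates 1 to 5 it was at 59.5, 200.1, 55.8, 23.8 and 0 CPM, and on female plate 1 at 58.3 CPM. The purinergic receptor *P2ry2* was at 119 and 120.3 CPM and counted in 32.5% of cells. *Fgfr3*, a fibroblast growth factor receptor, was counted in 96.9% of #p2 cells. It was at 1321 CPM in the males and 2645 CPM in the females against 22.3 CPM in hepatocytes and at most 109.8 CPM in a class. Its plates ranged from 858 to 3363 CPM, all above the hepatocytes. The bile acid receptor *Gpbar1* was at 0.0711 CPM in male cells and had no count in female cells. *Ghr*, the growth hormone receptor, was at 13.4 and 0.160 CPM against 586 CPM in hepatocytes.

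Of 15 tested bile acid and organic solute carriers, 9 were lower than in hepatocytes, against 8.83% of all tested genes, and 4 were higher, a share near the 31.7% of all tested genes. *Slc10a1*, the sodium-dependent bile acid importer of hepatocytes, was at 2.45 against 227 CPM, and *Abcb11*, the canalicular bile salt export pump, at 0.391 against 89.8 CPM. The apical bile acid importer of cholangiocytes, *Slc10a2*, was at 12.3 and 1.28 CPM against 7.89 CPM, and *Slc51a* had no count. *Abcc3* was at 234 and 242 CPM against 48.3 CPM, and *Ggt1*, the γ-glutamyltransferase used as a clinical biliary enzyme, at 41.0 and 127 CPM against 0 CPM.

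Of 33 tested transcription factors, 16 were higher and 3 were lower in #p2 cells than in hepatocytes, against 31.7% and 8.83% of all tested genes. *Sox9*, the biliary fate factor, was at 741 and 705 CPM against 10.8 CPM. Its value on male plate 3, 2789 CPM over 9 cells, was well above the 592 to 1007 CPM of the other 5 plates. *Onecut2* (266 and 173 CPM), the ETS factors *Elf3* (208 and 237 CPM) and *Ehf* (248 and 150.4 CPM), and the grainyhead factor *Grhl2* (78.0 and 95.01 CPM) were higher than in every other group. So were *Klf5* (69.9 and 29.5 CPM), the splicing regulator *Esrp1* (39.2 and 25.2 CPM) and, with the classes taken whole, *Prox1*, which the male lymphatic cells exceeded. Hepatocytes had 39.2, 2.23, 0.0279, 0.0279, 0.0279 and 0 CPM of the first 6 in that order, and 51.7 CPM of *Prox1*. *Hnf4a*, the hepatocyte master regulator, was at 39.7 and 17.9 CPM against 262 CPM, and *Cebpa* at 50.1 and 40.5 CPM against 199.6 CPM. *Foxa2*, shared by both epithelia in development, was at 168 and 62.0 CPM against 46.9 CPM. *Pdx1*, of the extrahepatic and pancreatic duct, had no count.

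Of 13 tested Notch pathway genes, 5 were higher and 2 lower than in hepatocytes, where 31.7% and 8.83% of all tested genes were. None was higher than in all other groups, near the 2.44% of all tested genes. *Notch2* and the ligand *Jag1* were at 116 and 94.1 CPM in male and 85.4 and 82.0 CPM in female #p2 cells, against 4.13 and 0.418 CPM in hepatocytes. The target *Hes1* was at 311 and 129 CPM against 16.8 CPM, whereas *Hes5* had no count and *Hey1* was at 3.88 and 1.60 CPM. Male plate 3, with the high *Sox9*, also had the highest *Notch2*, 614 CPM against 87.3 CPM on male plate 1. Its #p2 cells also had more endothelial markers, 1000 CPM of the summed list against 122 CPM on male plate 1, with 1 cell at 8609 CPM, and the part of these in the values was not tested.

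The Hippo list holds kinases and coactivators of the pathway as well as targets of YAP, and 12 of its 19 tested genes were higher than in hepatocytes and none was lower. *Ccn1* was at 1448 and 2377 CPM against 17.1 CPM, but mesenchymal cells had up to 1149.8 CPM. *Ankrd1* was the member higher than in all other groups, at 223 and 278 CPM with no count in hepatocytes and at most 3.42 CPM in a class, though 82.9 CPM in male elaSMC cells. *Ccn2* was at 92.9 CPM in the males and 421 CPM in the females against 1.28 CPM. *Yap1* itself was at 32.4 and 13.5 CPM, against 20.9 CPM in hepatocytes. These transcripts also respond to tissue dissociation, and their part in the result was not tested.

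The list of niche ligands contained 20 of 32 tested members higher than in hepatocytes. The platelet-derived growth factors *Pdgfd* (475 and 213 CPM) and *Pdgfc* (329 and 190.2 CPM), which act on PDGFRA and PDGFRB of mesenchymal cells, were at 1.20 and 1.34 CPM in hepatocytes and at most 91.1 and 72.01 CPM in a class. They were counted in 80.9% and 75.8% of #p2 cells. The EGF receptor ligands *Hbegf* (189.7 and 166 CPM) and *Tgfa* (87.1 and 229.9 CPM) were at 0.948 and 21.8 CPM in hepatocytes. *Tgfb2* (78.7 and 188 CPM) and *Tgfb3* (67.9 and 114 CPM) were counted in 41.2% and 31.4% of cells, whereas *Tgfb1* was at 0 CPM in the males and 0.160 CPM in the females. *Sema3c* and *Wnt7b*, the latter counted in 3.09% of cells, were higher than in all other groups, at 110.5 and 11.8 CPM in males and 86.4 and 8.33 CPM in females. The hedgehog ligand *Shh* and the EGF-family ligand *Ereg* had no count, and *Il6* was at 0.0711 CPM in males with no count in females.

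Of 25 tested genes of the chemokine and innate defence list, 13 were higher than in hepatocytes and 4 lower. Of 21 interferon-stimulated genes 8 were higher and none lower, a share not far from the 31.7% of all tested genes. *Pigr*, the receptor that carries IgA into bile, was within 4-fold of hepatocytes, at 1374 and 798 CPM against 464 CPM, with plates from 289 to 1612 CPM that overlapped the hepatocyte value. *Lcn2* (229 and 156 CPM), *Wfdc2* (113 and 122 CPM), *Wfdc15b* (40.4 and 6.89 CPM), *Tff2* (46.9 and 9.61 CPM) and the flagellin receptor *Tlr5* (16.2 and 37.2 CPM) were higher than in all other groups taken whole, as was *Muc1*, although female lymphatic cells had more *Lcn2* than female #p2 cells. Complement *C3* was at 1061 and 2356 CPM against 655 CPM in hepatocytes and up to 1731 CPM in a class, and its log2 ratio in males was 0.70 with CPM and -0.11 with TMM factors. The chemokine *Cxcl16* was at 150.2 and 278 CPM and *Cxcl1* at 125 and 117 CPM, while *Ccl2* was at 0.0889 and 0.801 CPM and *Ccl20*, *Muc4*, *Reg3g*, *Defb1* and *Tff3* had no count.

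Antigen presentation genes were higher than in hepatocytes for 13 of 16 tested members. None was higher than in all other groups, near the 2.44% of all tested genes. The class I genes *H2-K1* and *H2-D1* (H2.K1 and H2.D1 in the table) had 2243 and 1909.7 CPM in male #p2 cells and 462 and 303 CPM in hepatocytes. *Cd74*, the class II invariant chain, was at 619 and 715 CPM in the pools, against 94.2 CPM in hepatocytes and up to 3915 CPM in immune cells. By plate it was at 785 CPM on male plate 1 and 724 CPM on female plate 1, but at 179, 155 and 71.96 CPM on male plates 2, 3 and 4, and it had no count on male plate 5. *H2-Ab1* followed the same order at the top, with 460.1 CPM on male plate 1 and 221 CPM on female plate 1, and 20.2 CPM at the lowest on male plate 3. The transactivator *Ciita* was at 31.3 and 8.01 CPM, against 0.139 CPM in hepatocytes. On male plate 1 there was 1 immune cell among 277 cells, and the whole list of 17 immune markers summed to 328 CPM in its #p2 cells, of which *Csf1r* made 324 CPM, against 20645 CPM in male immune cells. On female plate 1 the sum was 1086 CPM. The part of immune transcripts in the class II counts was not tested.

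**Figure D3:**
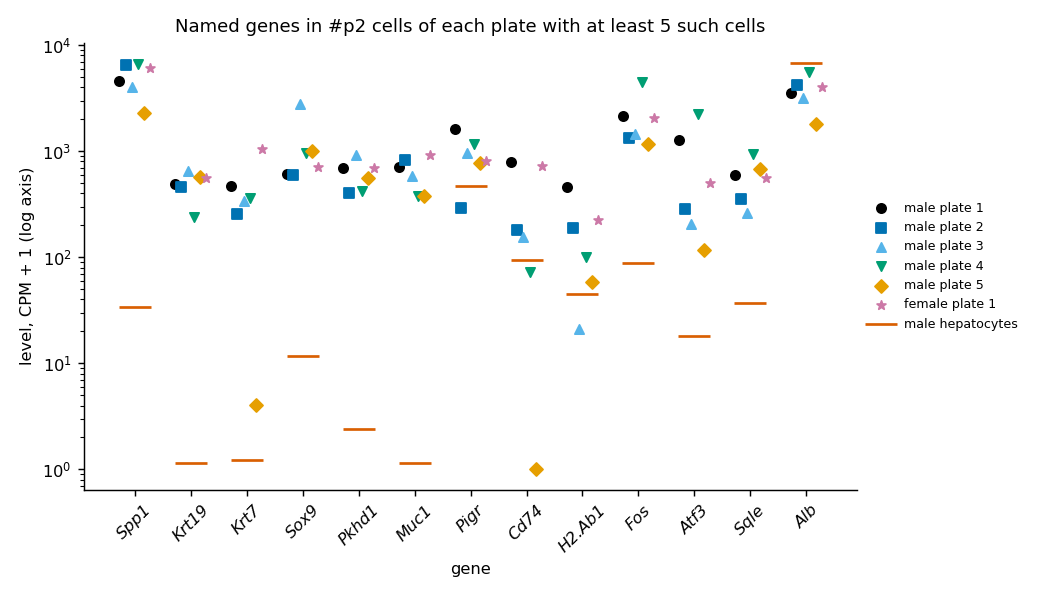
Levels of 13 named genes, as CPM + 1 on a log axis, in the #p2 cells of each of the 6 plates with at least 5 such cells (symbols), with the male hepatocyte level as an orange bar. *Krt19*, *Sox9* and *Pkhd1* were above the bar on every plate, whereas *Krt7* and *Cd74* dropped on male plate 5 and *Pigr* and *Cd74* straddled the bar.

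Of 22 tested genes linked to progenitor or regenerating ducts, 18 were higher than in hepatocytes. Against 2.44% of all tested genes, 10 were higher than in all other groups. *Clu*, or clusterin, was at 5712 CPM in the males and 10776 CPM in the females against 738 CPM in hepatocytes, and was counted in every #p2 cell. *Prom1*, the surface protein CD133, was at 468 and 511 CPM in #p2 cells, and *Plet1* at 786 and 876 CPM against 5.94 CPM. The TNF family receptors *Tnfrsf19* (251 and 348 CPM) and *Tnfrsf12a*, the TWEAK receptor (227 and 166 CPM), and the serine protease *St14* (271 and 428 CPM) were also higher than in all other groups. In contrast, *Lgr5* was at 0.0889 CPM in males with no count in females, *Axin2* had no count, and the fetal gene *Afp* was at 0.178 and 0.481 CPM.

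Mitotic genes were low and replication genes were counted in more cells. *Mki67* was at 1.76 and 0.320 CPM, *Top2a* at 0.0711 and 2.08 CPM and *Cdk1* at 0 and 0.320 CPM. Of the replication genes, *Pcna* was at 88.5 and 44.2 CPM and counted in 54.1% of #p2 cells, against 31.7 CPM in hepatocytes. The helicase subunits *Mcm6* (146 and 156 CPM) and *Mcm7* (71.7 and 182 CPM) were counted in 43.3% and 39.2% of cells, against 6.16 and 18.6 CPM in hepatocytes. The G1 cyclins *Ccnd1* (601 and 702 CPM) and *Ccnd2* (388 and 852 CPM) were at 19.9 and 12.8 CPM in hepatocytes, and 4 of 14 tested cell cycle genes were higher than in hepatocytes, no larger a share than the 31.7% of all tested genes.

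Metabolic genes differed gene by gene. In sterol synthesis 9 of 28 members were higher than in hepatocytes, close to the 31.7% of all genes, and none was lower. *Sqle*, squalene epoxidase, was at 578 and 550.2 CPM against 36.2 CPM. *Cyp51* (362 and 227 CPM) and *Msmo1* (644 and 421 CPM), which act later in the pathway, were also higher than in all other groups. *Hmgcs1* was at 942 against 788 CPM (log2 ratio 0.26, and -0.55 with TMM factors) and *Fdps* at 280.4 against 449 CPM, within 4-fold of hepatocytes, and both were at most 63.4 and 40.0 CPM in the other classes.

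Of 23 tested glycolysis genes and glucose isozymes, 6 were higher and 9 lower than in hepatocytes, against 31.7% and 8.83% of all tested genes. *Ldhb* was at 187 and 277 CPM in #p2 cells and 1.20 CPM in hepatocytes, whereas *Ldha* was at 284 and 382 CPM against 1726 CPM. *Hk1* was at 84.6 and 225 CPM against 0.725 CPM. *Pkm* was at 131 and 173 CPM against 15.8 CPM, and *Pklr* at 10.5 and 4.49 CPM against 265 CPM. *Slc2a2*, the glucose transporter GLUT2 best known from hepatocytes and β-cells, was higher in #p2 cells, at 496 and 226 CPM against 84.8 CPM, and its plates ranged from 229 to 534 CPM. The gluconeogenic *Fbp1* was at 32.8 and 26.3 CPM against 1856 CPM.

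A set of hepatocyte transcripts was nevertheless counted in #p2 cells. *Alb*, albumin, was at 3545 and 4070.2 CPM, 52.2% of the male hepatocyte level of 6786 CPM in the male pool, and every plate had between 1801 and 5556 CPM. The secreted proteins *Ttr* (40.6%), *Ahsg* (35.7%) and *Trf* (33.2%) were also well represented. *Trf*, or transferrin, was also at 1197 CPM in male immune cells. Of 24 hepatocyte markers, 20 were at least 4-fold lower. Of the 39 genes on the hepatocyte and urea cycle lists, 8 were above 20% of the hepatocyte level in male #p2 cells and 24 were below 5%. *Apoa1* was at 50.2 against 2109 CPM, *Cps1* at 2.72 against 647 CPM and *Cyp2e1* at 15.2 against 1904 CPM. In the male non-epithelial classes *Alb* was at most 2.27% of the hepatocyte level. On male plate 1, which held 1 hepatocyte among 277 cells, #p2 cells had 3525 CPM of *Alb*, and on female plate 1, which held none, 4039 CPM. The cells kept on a plate do not show which RNA was in the dissociated tissue, and the part of hepatocyte RNA in these counts was not tested.

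**Figure D4:**
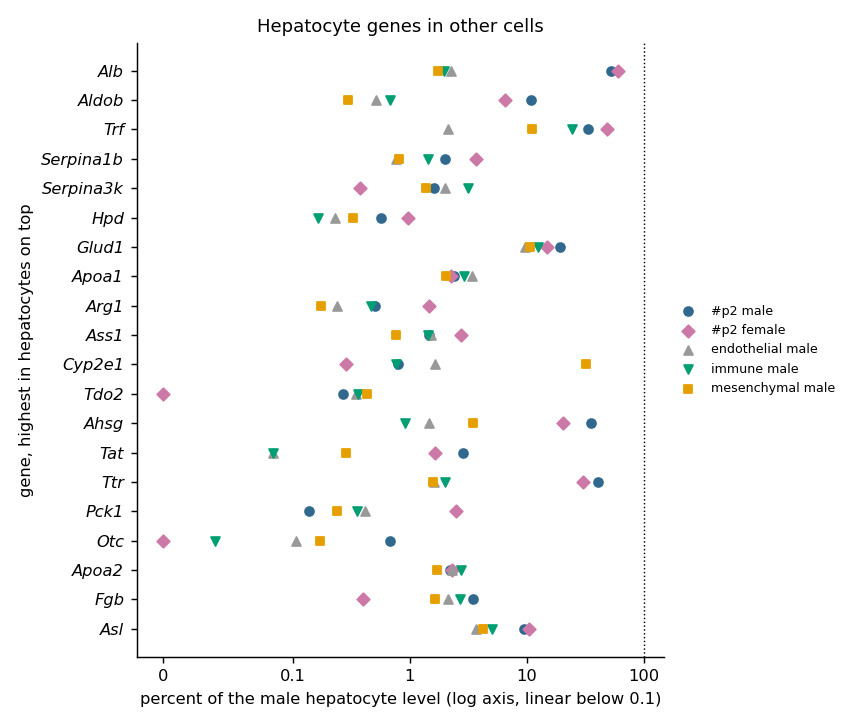
Levels of 20 hepatocyte genes with high hepatocyte CPM (rows) in #p2 cells of each sex and in the male endothelial, immune and mesenchymal classes, as percent of the male hepatocyte level (log axis, linear below 0.1; the dotted line is 100%). *Alb*, *Trf*, *Ttr* and *Ahsg* lay well to the right in #p2 cells, while *Apoa1* and *Cyp2e1* lay within the range of the other classes or below it.

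Across the 192 cells that could be thinned to 50000 counts, the spread of a gene was measured as the residual of its squared coefficient of variation on its mean. Eligible genes were those counted in 20% to 80% of the cells of each pool. The 20 most variable of 3879 eligible genes were *Wdpcp*, *Sec22a*, *Fam216a*, *Shtn1*, *Nnt*, *Osbpl1a*, *Ap3b1*, *Akap8*, *Acsl4*, *Rap1b*, *Aimp1*, *Mybbp1a*, *Gstk1*, *Tbcc*, *Cdv3*, *Bptf*, *Ddx3x*, *Ndufaf3*, *Cog4* and *Mtx2*. None of them is on a gene list. They were at 31.2 to 161 CPM in the male pool and counted in 30.4% to 62.9% of cells. A single cell held between 23.98% and 44.2% of the CPM summed over cells for each of them, with 90th percentiles from 63.1 to 528 CPM and highest cells from 3955 to 8937 CPM, and 11 of the 20 were found again when all counts were used. Among 148 eligible list members the spread was largest for *Tcf7l2*, *Itga3*, *Iigp1*, *Nr4a1* and *Efnb1*, followed by *Ankrd1*, *Atf3*, *Ccn2*, *Lats2* and *Pecam1*. *Ankrd1* and *Ccn2* are YAP targets, and *Atf3* and *Nr4a1* are immediate early genes. Here too the highest cells lay far above the 90th percentiles for most of the genes named. They were at 6911 against 233 CPM for *Tcf7l2*, 8892 against 615 CPM for *Itga3* and 4927 against 426 CPM for *Ccn2*. For *Atf3* the values were closer, at 5735 and 2626 CPM.

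Of 30 tested immediate early genes, 24 were higher than in hepatocytes. Among them *Fos* and *Atf3*, chosen here after their values were seen, varied widely between cells. *Fos* was at 2030.0 and 2060.1 CPM in the pools and *Atf3* at 1086 and 489 CPM, against 87.2 and 17.2 CPM in hepatocytes. In single cells, 78 had at least 1000 CPM of *Fos* and at least 300 CPM of *Atf3*, 84 had neither, 26 had only the former and 6 only the latter, and 28 cells lay between 500 and 2000 CPM of *Fos*. The rank correlation of both genes over all #p2 cells was 0.73, and over the 110 cells of male plate 1 it was 0.80, as a description of cells that share plates and depth. On male plate 1, 57 cells had both and 45 neither, and on male plate 4 the numbers were 6 and 2, whereas on male plate 2 they were 2 and 14. On female plate 1, 11 cells had both, 11 neither, 12 only *Fos* and 2 only *Atf3*. Cells with both had a median of 387369 counts and cells with neither 250735. Over plates *Atf3* ranged from 117 to 2257 CPM. The summed list was at 15459 CPM in male #p2 cells, 1877 CPM in male hepatocytes and 15283 CPM in male mesenchymal cells. These genes respond to dissociation, and its part in these levels was not tested.

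**Figure D5:**
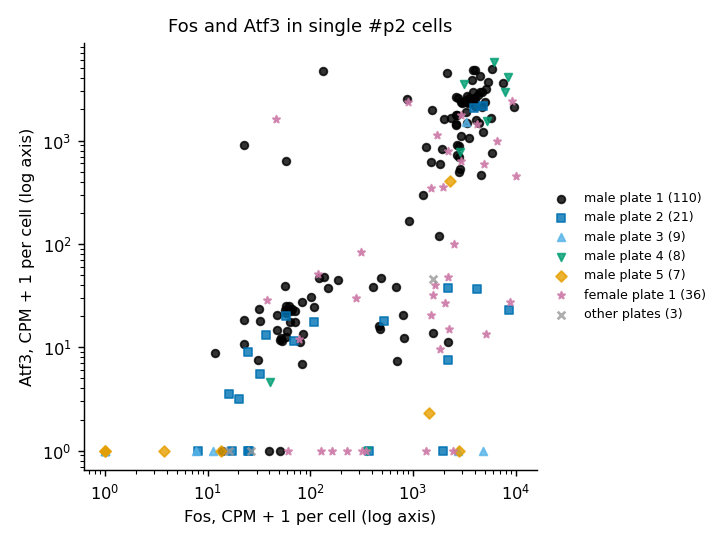
*Fos* against *Atf3* in single #p2 cells, each as CPM + 1 on log axes, with symbols for the plate and the number of cells in parentheses. The 78 cells with at least 1000 CPM of *Fos* and 300 CPM of *Atf3* lie at the upper right and the 84 cells with less of both lie at the lower left.

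The spread of named genes over single cells differed. *Krt7* was counted in 76.8% of the cells, with a median of 348 CPM, a lower quartile of 3.58 CPM and an upper quartile of 811 CPM. *Clu* had a median of 6629 CPM with quartiles of 4878 and 10208 CPM. All #p2 cells also fell into 1 cluster by the finer community setting, and no hepatocyte was in it.

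Markers of other cell types were summed in each #p2 cell, leaving out list members at 100 CPM or more in the male #p2 pool. On male plate 1 the median sum over 110 cells was 0 CPM for 16 immune markers, 13.0 CPM for 13 endothelial markers, 59.6 CPM for 13 mesenchymal markers and 131.9 CPM for 19 hepatocyte markers, where the cells of those classes had medians of 25317, 15393, 22044 and 21616 CPM. On female plate 1, shared with 93 immune and 54 endothelial cells, every #p2 cell had at least 161.8 CPM of immune markers (median 1120.1) and at least 113.8 CPM of endothelial markers (median 442.9). In 5 #p2 cells (3 male, 2 female) a sum reached 5000 CPM. *Csf1r*, the receptor of macrophage colony-stimulating factor and the immune marker left out of the sum, was at 289 CPM in the males and 292 CPM in the females and counted in 79.9% of them, with 324 CPM on male plate 1 against 33.3 CPM in hepatocytes. *Ptprc* was at 0.285 CPM in the same male cells. By list, 2 of 10 endothelial, 4 of 9 immune and 6 of 12 mesenchymal markers tested were lower than in hepatocytes, against 8.83% of all tested genes, and *Csf1r* and *Rgs5* (124 and 251 CPM against 4.29 CPM) were the only higher ones. Of 8 mesothelial markers, *Krt7*, *Krt19* and *Gpm6a* were tested and higher, and *Msln*, which defines mesothelium, was at 0.0178 and 0 CPM. The part of such transcripts in other results was not tested.

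Between the sexes, 699 of 12530 tested genes (5.58%) were at least 4-fold higher in female #p2 cells and 1317 (10.5%) at least 4-fold higher in male ones. The sum of both, 2016 genes, became 3130 without male plate 1 and 10870 without female plate 1, which left 1 female cell. Sex, animal, plate and depth cannot be told apart here, since 36 of the 37 female cells came from 1 plate, and the deepest cell gave 17.03% of the female counts. *Xist* was at 706 CPM in female and 0.0533 CPM in male cells, and counted in every female cell. The Y-linked *Eif2s3y* was at 150.1 CPM in male cells with no count in female cells, at least 312-fold higher in males when the female side is set at 3 counts over the pool. The Y-linked *Kdm5d* and *Uty* had counts in 16.2% and 13.5% of female cells.

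Of the other genes by the rule, *Wnt2* was at 141 CPM in female and 0.107 CPM in male #p2 cells, and at 621 CPM in female endothelial cells. *Tpbgl*, *Cnr2*, *Mylip* and *Gpihbp1* were at 167, 134, 81.4 and 185 CPM in female against 0.480, 0.231, 0.711 and 4.91 CPM in male #p2 cells, and female endothelial cells had 504, 109, 293 and 798 CPM. *Fcer1g* and *Fcna* were at 133 and 73.2 CPM in female #p2 cells and 863 and 2734 CPM in female immune cells. Of the 699 female-higher genes, 185 (26.5%) were at least 4-fold higher still in a female non-epithelial class, against 20.7% of all tested genes. Of the 1317 male-higher genes the number was 92 (6.99%), against 12.5%. Both gene sets were chosen by the #p2 values that enter these counts, so the shares are no finding about transcripts of other cells.

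Male #p2 cells had more *Serpina1e* (106 against 2.88 CPM), an α1-antitrypsin gene at 2787 CPM in male hepatocytes, *Zfand5* (321 against 20.99 CPM), *Pdcd4* (121 against 11.1 CPM) and *Gclm* (221 against 26.3 CPM), a subunit of the enzyme that limits glutathione synthesis. *Lrrc8a*, *Marcks*, *Gm16586*, *Ube2e3* and *Bbip1* completed the list. Of the 394 genes higher in #p2 than in all other groups, 13 were female-higher and 12 male-higher, against 5.58% and 10.5% of all tested genes. These 394 genes had to pass the fold in both pools, which removes many that are low in either sex. Their lower shares are thus no finding about sex.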

How the data were processed

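Single cells of mouse liver were sequenced by Smart-seq2 on 22 plates, and the deposited tables hold raw read counts per gene and cell, made by the authors with Bowtie2 and featureCounts (Subread) on GRCm38/mm10 per the labels, without molecular identifiers. The authors removed cells of low depth, with a high mitochondrial or spike-in share, or with gene numbers typical of doublets, and clustered the rest, so no doublet caller was run here. They also took out cells that looked contaminated by another cell type, a filter that bears on the low marker sums of other types given above. The 8 samples are the 4 cell classes in each sex, and the animal behind a cell is not given. The cluster members and the gene lists were chosen with earlier results of these data known.

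Counts were summed over cells and scaled to CPM without the 92 ERCC rows. A pseudocount of 1 CPM, a minimum of 5 CPM on either side and a limit of 4-fold were used. With 1 sample per class and sex, no test was run. Depth, from 47763 to 1062888 counts in #p2 cells, limits what a count of 0 shows. Genes were named as the 15 largest ratios higher than hepatocytes and the classes (counted in at least 50% of cells and past the fold on every plate), the 10 largest lower, the 10 largest between sexes in each direction, the 20 most variable genes after thinning to 50000 counts, and members of 28 gene lists. Variable genes were thinned from the outset, so their alternative used all counts. Alternatives covered scaling, thinning, the filter, the pseudocount, the fold limit, single plates and the pools. Python 3.11.15, numpy 2.4.6, pandas 2.3.3, scipy 1.17.1, matplotlib 3.10.9, R 4.3.3 and edgeR 4.0.16 (TMM factors only) were used. Promoters came from RefSeq on GRCm38.p6. Some genes are not reported here.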

Additional observations from a re-analysis of the deposited data

Results flagged for a closer look

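For 117 pairs of a gene and a non-epithelial class, #p2 cells were at least 4-fold higher than the class in one pool and at least 4-fold lower in the other. The 8 pairs whose gene is on a list or named by a rule are given here. These differences were not tested, since each side is 1 pooled sample. Against immune cells the ratio was -5.78 in the male and 4.04 in the female pool for *Cnr2*, -3.65 and 3.72 for *Wnt2*, -3.08 and 4.01 for *Tpbgl*, -2.63 and 2.97 for *Gpihbp1*, and -2.38 and 3.13 for *Notch3*. Against mesenchymal cells it was -2.62 and 4.40 for *Wnt2* and -5.10 and 2.91 for *Tpbgl*. Against endothelial cells it was -2.06 and 2.23 for *Hgd*, whose female counts all came from the 1 cell of female plate 2 that had no cholangiocyte marker and 5115 CPM of hepatocyte markers. Without that cell the female ratio was -2.27 for *Hgd* and 1.29 for *Notch3*, and between 2.93 and 4.42 for the other 6 pairs. The summed endothelial markers of #p2 cells had a median of 442.9 CPM on female plate 1 and 13.0 CPM on male plate 1, and their part in these ratios was not tested.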

How the results depend on the processing

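With a limit of 2-fold, 6198 genes were higher and 1930 lower than in hepatocytes, 1076 higher than in each class, 743 higher than in all other groups and 5423 apart between the sexes. With TMM factors 1798 genes were lower than in hepatocytes against 1114, and within male plate 4 alone 2441. Without the female pool 943 genes were higher than in each class and 616 than in all other groups, and without the male pool 932 and 659. With the highest cluster of each class the numbers were 287 and 212. Leaving out each plate in turn gave 3693 to 4010 genes higher and 1114 to 1562 lower than in hepatocytes. Between the sexes it gave 1995 to 10870 genes against 2016, with the upper end without female plate 1, which left 1 female cell, and 3130 without male plate 1. Of the 20 most variable genes 11 were shared when all counts were used. Without the 5 cells rich in markers of another type, a choice made after seeing the data, 4018 genes were higher and 1134 lower than in hepatocytes, 606 higher than in each class, 397 than in all other groups and 1964 apart between the sexes. Of 862 recomputed log2 ratios of named genes, 35 changed sign, 15 with TMM factors, 12 with thinned counts and 8 with the mean over cells, and none of these was past 4-fold. The share of #p2 cells with a count fell below its interval for 259 named genes and stayed for 11 when at least 20 counts were required, and for 203 and 67 with cells thinned to 50000 counts. The causes were not tested. No paired test was run, because each class has 1 sample per sex in the labels. Groups share plates, and within male plates 2 and 3, an alternative chosen after seeing the data, 1079 and 1414 genes were higher than in each class.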

Other observations

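The 22 listed interferon-stimulated genes summed to 3639, 2221, 1204, 1641 and 1399 CPM in the #p2 cells of male plates 1 to 5 and to 3011 CPM on female plate 1. Members of the list, of which *Iigp1* and *Irf1* were chosen after their values were seen, did not all keep this order. *Iigp1*, an immunity-related GTPase, was at 398 CPM on male plate 1, 94.7 CPM on male plate 4, 73.3 CPM on male plate 5 and 73.5 CPM on female plate 1, but at 1.73 and 0.450 CPM on male plates 2 and 3. *Irf1*, an interferon-induced transcription factor, was at 563 CPM on male plate 1, 528 CPM on male plate 4 and 510.3 CPM on female plate 1, against 131, 96.7 and 191 CPM on male plates 2, 3 and 5. The class II genes *Cd74* and *H2-Ab1* were highest on male plate 1 and female plate 1 as well. These are values of plates with 7 to 110 cells each and carry no test.

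*Anxa5*, a phospholipid-binding annexin, varied little by plate, from 2243 to 3494 CPM (2899 ± 455, SD, n = 6), against 278 CPM in male hepatocytes. *Ddit4l* and *Kcne3* ranged from 375 to 839 CPM and from 118 to 538 CPM on the same plates, with 0.920 and 0.139 CPM in hepatocytes. *Ddit4l* was also at 227 CPM in female cells annotated as artSMC, against 369 CPM in female #p2 cells.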
